A study of Mus musculus with 2 samples.

Results

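Collagen genes and 3 small leucine-rich proteoglycans were followed in the cells of the mouse sour taste pathway. The set comprised every gene whose symbol reads Col, a number, a and a number, together with decorin (Dcn), lumican (Lum) and biglycan (Bgn). It held 47 genes, 44 of them collagens, of 23394 genes in the taste table and 23392 in the ganglion table. All animals were C57BL/6; ages are not given in the sources used here. Sorted tongue epithelium of Pkd2l1-tdTomato mice gave 2 sour pools and 56 single sour cells, all tdTomato-positive, and 4 control pools of tdTomato-negative cells, which the labels describe as non-sour taste cells and supporting cells. Pools held 50 to 100 cells each. The ganglion sample came from P2rx3-tdTomato mice, from which 454 tdTomato-positive cells were picked by hand in 8 experiments. The reporter follows the Pkd2l1 or the P2rx3 gene, so a sorted cell is defined by that gene and not by its collagens. Whether pools or experiments stand for separate animals is not stated, so p-values measure only the spread between these libraries, which may be technical.

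Collagens are trimeric extracellular proteins. Fibrillar types build the fibres of connective tissue, types IV, VII, XVII and XVIII hold epithelia and vessels to their basement membranes, and several transmembrane types are found on neurons and other cells. Decorin, lumican and biglycan are secreted proteoglycans that bind collagen fibrils, and fibroblasts are their best known source. The members were grouped roughly into 6 epithelial attachment collagens, 11 fibrillar collagens and 14 stromal network, beaded and fibril-associated collagens. The other groups were 4 vascular basement membrane collagens, 9 transmembrane and neural collagens and the 3 proteoglycans. These names are loose. The transmembrane and neural group also holds Col9a1, Col9a2, Col9a3, Col19a1, Col20a1 and Col28a1, which are not transmembrane. Col16a1, a fibril-associated collagen, was placed in the epithelial attachment group, and Col4a3 and Col4a4 in the vascular group.

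The 250 bases before the RefSeq start of 3 members (GRCm38.p6) are shown because the taste and ganglion results turn on them: Col17a1 among control pools, Col28a1 among sour cells and Col24a1 among ganglion cells. The first lies at chr19:47692043-47692292 on the minus strand, the second at chr6:8192618-8192867 on the minus strand and the third at chr3:145292222-145292471 on the plus strand. Capitals mark matches, on either strand, to the TATA box letters TATAAA, the AP-1 letters TGANTCA or the CRE letters TGACGTCA.

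Col17a1: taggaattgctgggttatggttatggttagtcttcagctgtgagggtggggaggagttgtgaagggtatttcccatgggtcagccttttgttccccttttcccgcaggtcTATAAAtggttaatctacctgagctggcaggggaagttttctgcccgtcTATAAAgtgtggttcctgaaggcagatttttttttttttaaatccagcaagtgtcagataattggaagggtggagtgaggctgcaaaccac

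Col28a1: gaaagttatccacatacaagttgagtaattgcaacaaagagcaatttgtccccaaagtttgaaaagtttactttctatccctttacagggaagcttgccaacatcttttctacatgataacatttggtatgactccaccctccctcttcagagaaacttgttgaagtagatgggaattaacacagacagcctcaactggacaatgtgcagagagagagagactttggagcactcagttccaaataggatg

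Col24a1: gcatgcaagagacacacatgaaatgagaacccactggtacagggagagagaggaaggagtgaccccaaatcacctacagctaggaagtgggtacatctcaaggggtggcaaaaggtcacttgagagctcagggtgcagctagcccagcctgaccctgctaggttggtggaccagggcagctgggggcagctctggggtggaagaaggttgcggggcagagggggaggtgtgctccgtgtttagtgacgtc

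Within these windows, Col17a1 held 2 TATAAA matches, beginning 140 and 91 bases before the start, and Col28a1 and Col24a1 held none of the 3 motifs. Among 32851 promoters of the same length, TATAAA occurred in 12.4%, TGANTCA in 6.75% and TGACGTCA in 1.55%. The letters at the end of the Col24a1 window are the first 7 of TGACGTCA. After that had been seen, the window was extended by 30 bases past the start; only then did Col24a1 hold 1 TGACGTCA match, beginning 7 bases before the start, and 1.74% of the extended promoters held one. In GRCm38 the genes themselves lie at chr19:47646344-47692094 (Col17a1), chr6:7997808-8192617 (Col28a1) and chr3:145292472-145552011 (Col24a1), and Dcn at chr10:97479609-97518143. These gene coordinates are from GENCODE. There Col17a1 begins at 47692094, inside the window shown, so the 2 distances given for its matches hold for the RefSeq start only. A match is a description of letters and no evidence of binding. The table held a promoter for 36 of the 47 members.

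The sour pools had 188503 and 403166 gene reads and the control pools 343757 to 680954. Pkd2l1, the channel gene of the reporter, had 5129 and 2557 CPM (reads per 1000000 gene reads) in the sour pools, against 2.94, 0, 8.02 and 14.5 CPM in the control pools. The 10 listed markers of sour cells were all higher in the sour pools by the edgeR test used below. The listed keratinocyte markers summed to 1845 and 2546 CPM in the sour pools and to 40456 to 62408 CPM in the control pools. The macrophage gene Lyz2 had 3822 and 0 CPM in the sour pools, so sour pool 1 stands apart in this respect; each result is therefore also given without it where the call changed.

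In the pools, Dcn and 4 of the 6 members grouped as epithelial attachment collagens (Col17a1, Col7a1, Col18a1 and Col16a1) were called lower in sour cells. Col28a1 was called higher. The calls of Col18a1 and Col16a1 were lost under some alternatives, given with their values. Of the 47 members, 6 had enough reads to be tested with edgeR's quasi-likelihood test (adjusted p under 0.05 over 7739 genes and at least a 2-fold change). Of these, 1 was called higher and 5 lower, where 15% of all tested genes were called higher and 14.4% lower. A member with few reads in control pools passed the filter only if it was high in one group, so the count describes these 6 genes and not the family. All 6 had sour and control values that did not overlap, as had 48.6% of all tested genes. In pools, fewer cells of a type and less RNA per cell cannot be told apart.

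**Figure D1:**
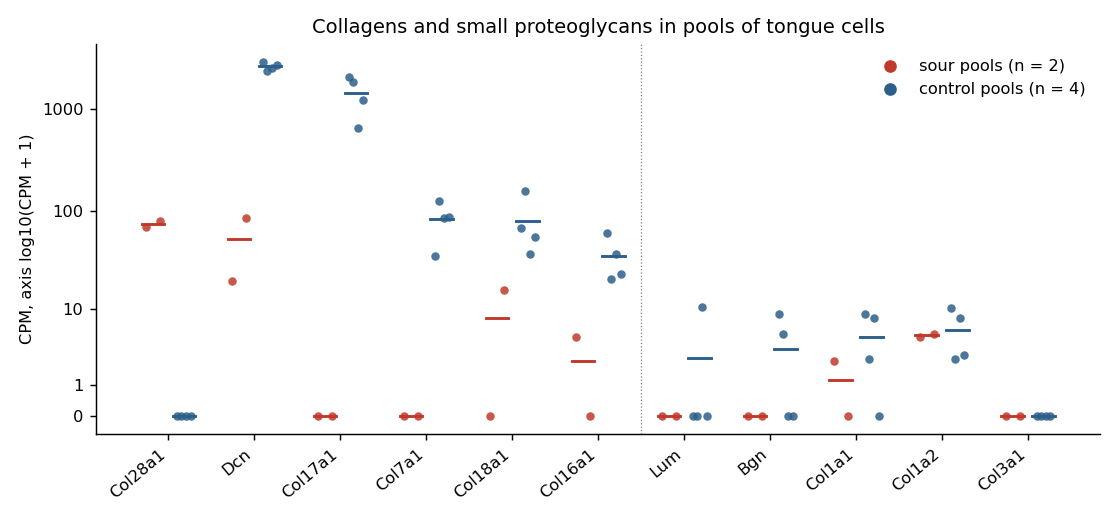
CPM of 11 members in each pool (vertical axis, log10 of CPM + 1), with 2 sour pools left of 4 control pools for each gene; horizontal lines are means. The 6 genes left of the dotted line were tested: Col28a1 had no read in control pools, while Dcn and Col17a1 reached 2877 and 2019 CPM there, and the stromal genes on the right stayed near 0 in both groups.

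Dcn was the most abundant member in the control pools. It had 19.8 and 84.9 CPM in the sour pools, against 2877, 2320, 2512 and 2650 CPM in the control pools. No sour pool came near a control pool, and the means differed 49.5-fold (log2 fold change -5.81 ± 0.56 SE, edgeR adjusted p = 4.0e-06). Within plate 1 the sour pool had 19.8 CPM against 2877 and 2320 CPM, and within plate 3 it had 84.9 against 2650 CPM. Per kilobase of exon, Dcn averaged 8.97 ± 7.88 CPM in sour pools and 444 ± 40.2 CPM in control pools (SD, n = 2 and 4).

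Col17a1, the transmembrane collagen of hemidesmosomes in basal keratinocytes, had no read in either sour pool. It had 2019, 1842, 652 and 1225 CPM in the control pools, with 239 ± 104 CPM per kilobase (SD, n = 4). Against a floor of 3 reads over both libraries, it was at least 283-fold lower in sour pools. The fitted log2 fold change was -12.16 (adjusted p = 2.9e-06, edgeR). Both values hold for these pools only. Single sour cells, described below, averaged 37.3 CPM of Col17a1, with a read in 8 of 52 cells and a highest cell of 591 CPM. The reason for this difference from the sour pools was not tested. Dcn and Col17a1 together made up 94.0% of all member reads in the control pools.

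Col7a1, which forms the anchoring fibrils under epithelia, had no read in the sour pools, against 35.2, 123, 85.5 and 87.3 CPM in the control pools. Every control pool was above both sour pools, and the floor puts the difference at least 16.3-fold lower (edgeR adjusted p = 6.5e-04). Its exons share 36 bases with Mir711.

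Col18a1, a basement membrane collagen that carries endostatin, had 0 and 15.9 CPM in the sour pools and 67.5, 155, 37.4 and 55.3 CPM in the control pools. Only 3 reads underlie the sour value, and the ratio of sour to control CPM, from summed reads, was 0.0654 (95% counting interval 0.0133 to 0.195). edgeR gave a log2 fold change of -3.75 (adjusted p = 0.0135), but not without sour pool 1 (adjusted p = 0.129). Col16a1, a fibril-associated collagen, had 4.96 and 0 CPM in the sour pools and 60.2, 20.995, 37.4 and 23.3 CPM in the control pools. Its sour value rests on 2 reads (ratio 0.0847, 95% counting interval 0.0101 to 0.318). The edgeR call (log2 fold change -3.39, adjusted p = 0.0236) was lost with DESeq2 (0.0570), without sour pool 1 (0.0577) and without sour pool 2 (0.115).

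Col28a1, a collagen related to the beaded type VI family and known in mouse peripheral nerve, ran the other way. It had 69.5 and 79.6 CPM in the sour pools, from 28 and 15 reads, and no read in any of the 4 control pools. Both sour pools lay above every control pool, at least 44.2-fold higher than the floor of 3 control reads (log2 fold change 7.87 ± 1.12 SE, edgeR adjusted p = 2.9e-04). Col9a3, a cartilage collagen chain, had 3 and 1 reads in the sour pools and none in the control pools, too few to be tested.

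The remaining 41 members had too few reads for the filter. Of all 47, 11 had a read in a sour pool and 18 in a control pool. The main fibrillar chains of connective tissue were scarce: Col1a1 had 1 read in sour and 10 in control pools, Col1a2 had 3 and 12, and Col3a1 none in either. Lum had no sour read and 4 control reads, and Bgn none and 8. Col4a5, a basement membrane chain of epithelia, had 2 sour and 17 control reads, with 4.96 and 0 CPM in sour pools and 5.87, 0, 24.1 and 11.6 CPM in control pools, which overlap. Its partner chain Col4a6 had no sour read and 18 control reads, at least 2.17-fold lower in sour pools.

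Most listed fibroblast genes had no read in the control pools, where Dcn was high. Pdgfra, Pdgfrb, Mgp and Dpt, which mark fibroblasts, were among them. In all, 7 of the 20 listed fibroblast genes had a read there, summing to 147 to 195 CPM. In sour pools 8 of the 20 did, summing to 146 and 233 CPM. Thy1, Cygb and Postn had a read in control pools and none in sour pools. Pdgfra, Prrx2, Pi16 and Clec3b had a read in sour pools and none in control pools. Fbln1, a fibroblast matrix gene, was lower in sour pools (8.68 ± 12.3 against 153 ± 19.4 CPM, SD, n = 2 and 4), and Mfap4 was higher (153 ± 54.4 against 0.656 ± 1.31 CPM). The endothelial genes Cdh5, Kdr, Tek, Emcn and Cldn5 had no read in either group; the list summed to 393 and 528 CPM in sour pools and 8.81 to 34.7 CPM in control pools. Vwf alone carried most of this sum (523 and 393 CPM in sour pools, against 0, 10.5, 0 and 0 CPM in control pools), and only 3 of the 12 listed genes had a read in a sour pool. The basal markers Krt14 and Krt5, expressed in basal lingual epithelium, were lower in the sour pools (142 ± 24.8 against 19328 ± 2721 CPM for Krt14). The part of any of these cells in the Dcn difference was not tested.

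Genes that fold, modify or bind collagen were also counted. Of 32 listed folding and processing genes 13 were tested, none was higher and 3 were lower in sour pools: Sparc, a collagen-binding protein (log2 fold change -4.24), Crtap, part of the prolyl 3-hydroxylation complex (-3.52), and P3h2, a prolyl 3-hydroxylase listed under its older symbol Leprel1 (-7.18). The median log2 fold change of the 13 was 0.28, against -0.01 over all tested genes. Of 21 genes of the hemidesmosome and epithelial basement membrane 12 were tested and 7 were lower in sour pools, among them Itgb4, which carries hemidesmosomes together with Col17a1 (-5.76), Plec (-2.14), Lamb2 (-6.23) and Egfl6 (-2.77, not called without control pool replicate 1 or sour pool 2, with edgeR adjusted p = 0.0671 and 0.109); none was higher, and their median was -1.73. Among the collagen receptors, 3 of 11 were tested and only Gpr56, the older symbol of Adgrg1, was higher (1.52, adjusted p = 0.0341 by edgeR). That call was lost with DESeq2 (0.0527), without sour pool 1 (0.316) and without control pool 1 (0.0645) or 2 (0.0585). The other small leucine-rich proteoglycans had 1 of 13 genes tested, Tsku, which was lower (-2.29), though not without sour pool 1 (edgeR adjusted p = 0.126) or control pool 1 (0.0525). These lists share samples with the members and are described by counts only.

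In single cells the same genes could be placed in individual sour cells, of which 52 had at least 1000 detected genes. They had 219578 to 914244 gene reads each. A read of Dcn occurred in 22 of 52 cells (42.3%, exact 95% binomial interval 28.7 to 56.8%), of Col28a1 in 19 (36.5%, 23.6 to 51.04%), of Col17a1 in 8 (15.4%, 6.88 to 28.1%) and of Col18a1 in 7 (13.5%, 5.59 to 25.8%). Those 4 of 47 members passed a share of 10%, whereas 40.8% of all genes did. Another 19 members were seen in fewer cells and 24 in none, which allows a share of up to 5.77% at a limit of 3 cells, or 6.85% by the exact interval. That limits cells with a read, not cells that express a gene. Intervals and limits cover counting error only.

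Dcn was uneven among sour cells. Its mean was 216 CPM and its highest cell had 5559 CPM, which alone held 49.5% of the Dcn CPM summed over the 52 cells. That cell also had the most Krt4 of the 52 (20649 CPM), with Krt14 at 1238 CPM. Its Pkd2l1 was at 278 CPM and its Otop1 at 1.44 CPM. The part of keratinocyte RNA in its Dcn value was not tested. Dcn reads were compared with epithelial keratin reads in the same cells. Of the 8 cells with a Col17a1 read 7 also had Dcn, and all 8 had Krt14 and Krt5. Of the 22 Dcn cells 16 had a Krt14 read, as had 12 of the 30 cells without Dcn. Spearman's rho over cells, given as a description, was 0.45 for Dcn and Krt14, 0.43 for Krt5, 0.49 for Col17a1, -0.29 for Pkd2l1 and 0.31 for the number of genes seen. The keratinocyte genes Krt4 and Krt13 had a read in 94.2% and 92.3% of sour cells, and their part in the Dcn share was not tested. Of the 20 listed fibroblast genes 7 had a read in some sour cell, led by Mfap4 in 16 cells (30.8%), Pi16 in 7 and Prrx2 in 6, while Pdgfra, Pdgfrb and Thy1 had none; the endothelial gene Pecam1 had none either.

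Col28a1 reads fell in cells with sour markers. All 19 cells with a Col28a1 read had Pkd2l1 and 17 had Otop1, the proton channel of sour cells; in all, 51 and 45 of the 52 cells had a read of these genes, so most sour cells with or without Col28a1 carried both. Col28a1 averaged 117 CPM, with a median of 128 CPM among cells with a read and a highest cell of 1681 CPM. Its rho was 0.20 with Pkd2l1, -0.06 with Krt14 and 0.08 with Dcn. Of the 19 cells, 10 also had a Dcn read.

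**Figure D2:**
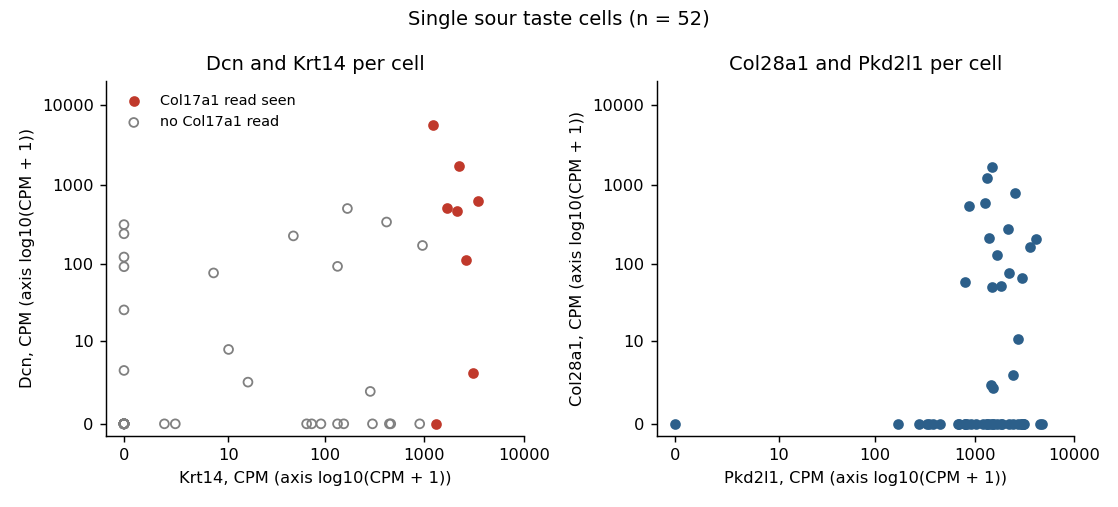
Each point is 1 of 52 single sour cells; axes show CPM as log10 of CPM + 1. Left, Dcn against Krt14, with cells that had a Col17a1 read filled; 8 cells had one and all lay at high Krt14. Right, Col28a1 against Pkd2l1; the 19 cells with a Col28a1 read all had Pkd2l1 reads.

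Among 7293 genes seen in at least 20% of these cells, those most like Dcn by Spearman's rho were Ly6g6c (0.63), Timm10b (0.60), Uqcrh (0.58), Rqcd1 (0.57) and Them5 (0.57). Those most like Col28a1 were Mtmr4 (0.56), Pfkm (0.54), Slc38a11 (0.52), Dusp4 (0.52) and Pnpla6 (0.52). The 52 cells share plates and chemistry but not depth, with 219578 to 914244 gene reads and 1049 to 6467 genes each. The rho with the number of genes seen was 0.31 for Dcn and 0.24 for Col28a1. The part of depth in these lists was not tested.

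In ganglion cells, reads of another set of collagens were seen. Their libraries were CEL-Seq, which tags the 3' end, and those of the sour cells SMART-Seq, with other depths and gene cutoffs. Kind of cell and library method cannot be told apart, so shares in sour and ganglion cells are unlike measures. Of 454 cells 371 had at least 2000 detected genes, with 9299 to 12716808 gene reads. All 371 had a read of P2rx3, the gene the reporter follows, so that share is not a finding. The labelled neurons also had the neuronal gene Thy1 in 368 cells, and Apoe, which is abundant in satellite glia, in 69.0% of cells. A read of 46 of the 47 members was seen in some cell; Col10a1 was not. In at least 10% of cells 12 members were seen, whereas 42.9% of all genes reached that share.

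Col24a1, a fibrillar collagen known from bone, was the most widespread. It had a read in 222 of 371 cells (59.8%, exact 95% interval 54.7 to 64.9%), averaged 102 CPM and was at 100 CPM or more in 87 cells. Over the 8 experiments its mean ran from 39.6 to 164 CPM, with a median of 78.7 CPM, and no experiment was without it. In order of experiment (JC04, JC05 and JC07 to JC12) the means were 39.6, 117, 83.4, 74.1, 146, 164, 72.1 and 69.4 CPM; JC10 and JC09 were highest and JC04 lowest. The transmembrane collagens Col23a1 and Col25a1, of which Col25a1 is known from motor nerve ingrowth in mouse muscle, had a read in 29.6% and 18.6% of cells. The Col23a1 mean of an experiment ran from 1.85 to 98.3 CPM. At least 1 of these 3 genes reached 100 CPM in 133 cells, at least 2 in 12 cells and all 3 in 1 cell.

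Fibrillar and matrix genes known from stroma were each seen in fewer cells than Col24a1. Col1a2 had a read in 32.1% of cells, Col3a1 in 24.0%, Dcn in 20.2%, Col4a1, a vessel and glial basement membrane chain, in 17.8% and Col6a3 in 12.1%. The shares depend on depth: with each cell thinned to 50000 reads (357 cells), Col24a1 was seen in 40.9%, Col1a2 in 18.5%, Col23a1 in 18.2%, Dcn in 12.6% and Col3a1 in 9.52% of cells. Among epithelial keratins, Krt14 and Krt5 were each seen in 2 of 371 cells (0.539%) and Krt10 in 50 (13.5%); they do not measure stray RNA from glia or stroma of the ganglion. Of the 20 listed fibroblast genes 19 had a read in some ganglion cell. Apart from Thy1, which neurons express, Cygb was seen in 74.7%, Prrx2 in 32.1%, Fbn1 in 17.5% and Fbln2 in 13.2% of cells, and the others in fewer than 10%, among them Pdgfrb in 4.58% and Pdgfra in 1.89%. The summed list ran from 0 to 6726 CPM per cell, with a median of 649 CPM, and its part in these shares was not tested.

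**Figure D3:**
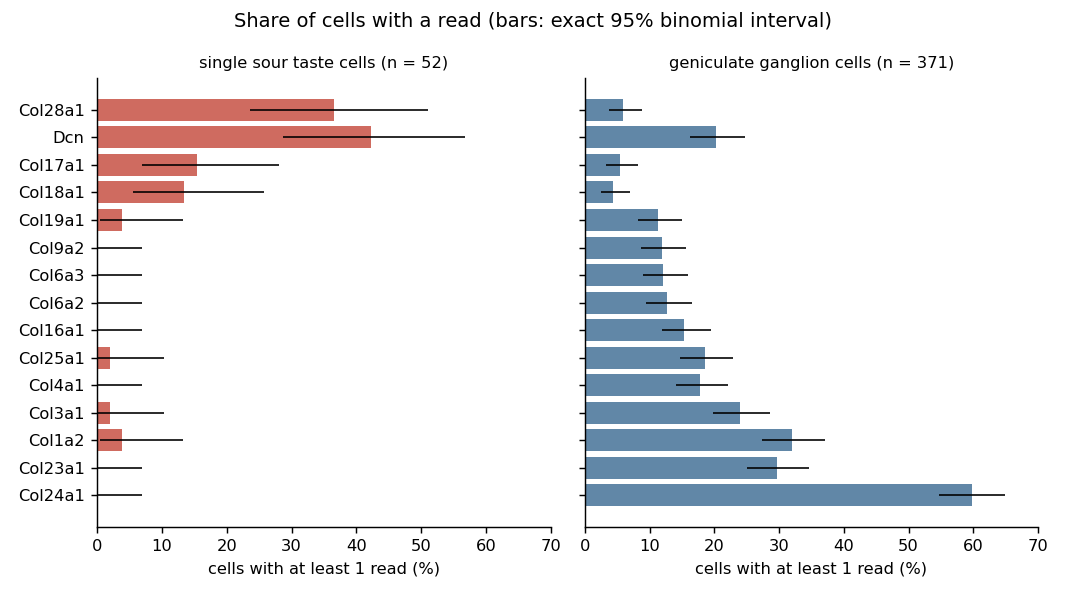
Percent of cells with at least 1 read for the 15 members seen in at least 10% of either kind of cell, left in 52 single sour cells and right in 371 ganglion cells, with exact 95% binomial intervals. Dcn and Col28a1 lead in sour cells, and Col24a1 leads in the ganglion, where it reached 59.8%. The sides differ in library method, depth and gene cutoff, so bars are not comparable across them.

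Single cells made up much of some means. Dcn reached 17832 CPM in 1 cell of experiment JC10, and without that cell its mean over 371 cells was 26.9 instead of 74.9 CPM. In the library of that cell 42.4% of the other cells had a Dcn read, against 17.8% in other libraries; the part of that cell in its neighbours' reads was not tested. Col3a1 reached 15919 CPM in 1 cell of JC12, from 76514 gene reads. That cell also had Dcn at 6247 and P2rx3 at 1242 CPM, while Col1a1, Lum, Pdgfra and Pdgfrb had no read. Among Col1a1, Col1a2, Col3a1, Dcn and Lum, 51 cells had at least 1, 14 cells at least 2 and 2 cells at least 3 at 100 CPM or more; no cell had more.

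**Figure D4:**
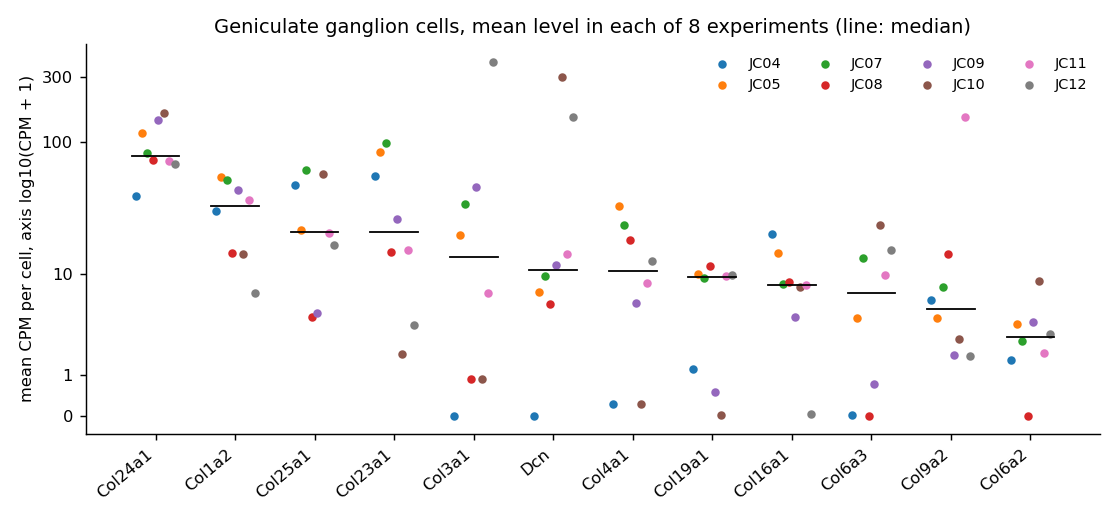
Mean CPM per ganglion cell in each of 8 experiments (points, colours) for the 12 members seen in at least 10% of cells; lines are medians over experiments and the axis is log10 of CPM + 1. Col24a1 stays between 39.6 and 164 CPM, while Col3a1 in JC12 and Col9a2 in JC11 lie far above the other experiments.

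The likeness of other genes differed between members. Among 8188 genes, the 5 most like Col1a2 included Sparc (0.36), Gpm6b (0.35), Mbp (0.34) and Sox10 (0.33), of which Mbp and Sox10 mark Schwann cells. The 5 most like Col3a1 included Serpine2 (0.29), Mal (0.28), Col1a2 (0.27) and Sox10 (0.27). Col23a1 was most like Acpp (0.52), Kcns3 (0.51), Diras2, Pde1c and Cadps2, and its rho was 0.46 with Piezo2, a mechanosensory channel, and -0.38 with P2rx3. Col24a1 was most like Ncald (0.42), Meg3, Kcnq1ot1, Malat1 and Calca, and its rho with Piezo2 was -0.19. Dcn was most like Apod (0.32). These values describe 371 cells from shared libraries and carry no test.

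Cells with much glial RNA were set against cells with little within each experiment. Satellite glia and Schwann cells surround the neurons of sensory ganglia. Cells above the experiment's median of the summed glial list were the high group: 182 against 189 cells in 8 experiments. By edgeR on reads summed per experiment, 0 of 21 tested members were called, with 6 at an unadjusted p under 0.05; over all 11296 genes 0.0531% were called higher and 0% lower, with 592 at an unadjusted p under 0.05. The members' median log2 fold change was 2.39, against -0.01 over all tested genes. The other 26 members had too few reads for the filter. A member with few reads in 1 group could pass only through its reads in the other. The median therefore describes these 21 genes and not the family. Dcn averaged 33.8 ± 50.3 CPM in cells with much glial RNA and 3.76 ± 5.85 CPM in cells with little (SD, n = 8 experiments), higher in 7 of 8 experiments, with a log2 fold change of 3.66 ± 0.80 SE (edgeR adjusted p = 0.257). Col6a3 averaged 27.2 ± 45.6 and 1.33 ± 2.71 CPM, higher in 7 of 8 experiments (adjusted p = 0.257 by edgeR, and 0.0343 with no filter on low counts). Col4a1 averaged 14.1 ± 10.9 and 0.988 ± 1.40 CPM and was higher in 8 of 8 experiments (adjusted p = 0.449, edgeR). Col24a1 averaged 87.4 ± 42.6 CPM in cells with much glial RNA and 79.8 ± 73.6 CPM in cells with little, with a log2 fold change of 0.51 ± 0.43 SE. Among the folding genes Sparc was called higher (3.61, adjusted p = 0.0406 by edgeR), 1 of 21 tested; the call was lost when any of JC04, JC05, JC07, JC09, JC11 or JC12 was left out (0.0588 to 0.147). Median reads per cell were 237570.5 to 2280113 over experiments in the cells with much glial RNA and 432632 to 3975705 in the others.

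The 25% of cells highest in Piezo2 were compared with the other cells of the same experiment, 85 against 269 cells in 7 experiments. Over experiments the median Piezo2 level ran from 19.7 to 859 CPM in the high group and from 0 to 32.2 CPM in the others. High is relative to each experiment. The median of the high group was 22.2 CPM in JC10 and 19.7 CPM in JC12, both below the 32.2 CPM of the other cells in JC07. None of 20 tested members was called by edgeR, with 3 at an unadjusted p under 0.05, and of 11372 genes 0% were called higher and 0% lower, with 1038 at an unadjusted p under 0.05. In both splits, a p above the threshold does not show that members did not differ. The members' median log2 fold change was -0.56 and that of all tested genes -0.17. The other 27 members were left out by the filter, so this median also describes only the 20 tested. Col24a1 averaged 34.6 ± 40.2 CPM in cells high in Piezo2 and 115 ± 58.6 CPM in the other cells (SD, n = 7 experiments), lower in 6 of 7. Its log2 fold change was -2.55 ± 0.53 SE, with an edgeR adjusted p of 0.113, and 0.00792 with no filter on low counts. Col23a1 averaged 142 ± 197 CPM in cells high in Piezo2 and 27.9 ± 41.6 CPM in the others, higher in 6 of 7 (log2 fold change 3.05, edgeR adjusted p = 0.490). Col25a1 averaged 19.03 ± 32.1 and 21.2 ± 16.3 CPM, lower in 6 of 7 (-2.004, edgeR adjusted p = 0.591). Col24a1, Col23a1 and Col12a1 were the 3 members at an unadjusted p under 0.05. Col12a1, a fibril-associated collagen, had a log2 fold change of -6.06 (edgeR adjusted p = 0.440), which turned positive without the experiment term. Among 17 listed neuron genes none was called, with a median of -1.52, and P2rx3 was at -1.55 (edgeR adjusted p = 0.115). Median genes per cell ran from 4562 to 7781 over experiments in cells high in Piezo2 and from 3688 to 6565 in the others; the part of depth in these values was not tested.

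**Figure D5:**
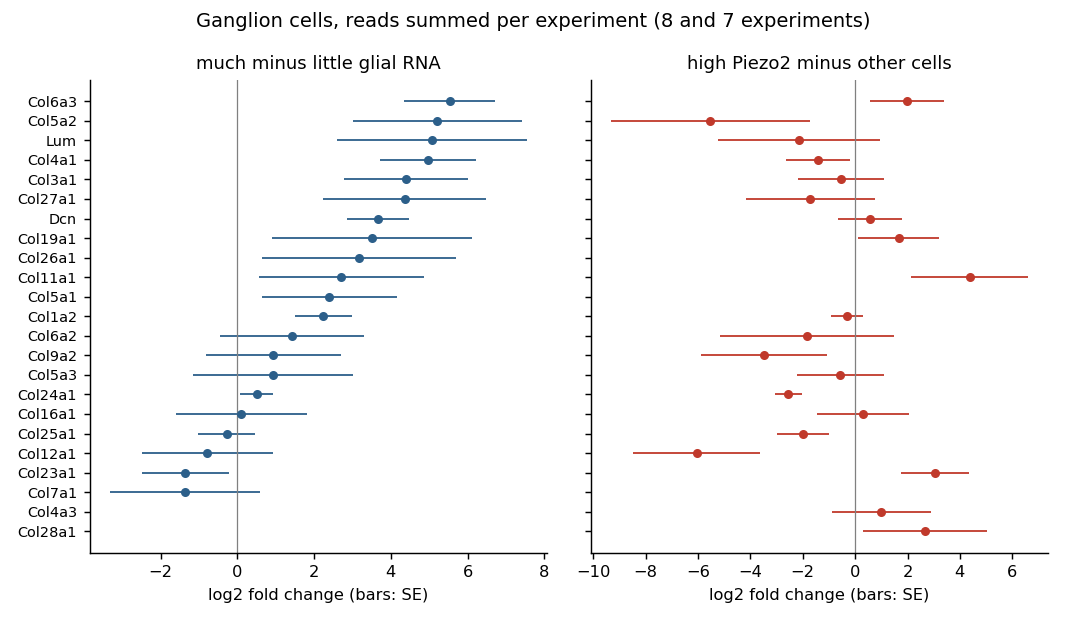
Log2 fold change with its SE (horizontal bars) for each member tested in the ganglion, left for much minus little glial RNA (8 experiments) and right for high Piezo2 minus other cells (7 experiments). Most of the members that passed the filter lie right of 0 on the left side, with wide errors, and Col24a1 lies at -2.55 on the right side.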

How the data were processed

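Reads per gene symbol were deposited as raw counts for both samples. The submitters' processing notes name STAR, HTSeq and the GRCm38 (mm10) build without versions, and whether counting used strand is not given in the sources used here. Ganglion counts come from CEL-Seq, which tags the 3' end, and are reads rather than molecules; taste libraries came from a SMART-Seq kit, per the labels' protocols. The labels list 2 sour and 10 control pools, of which 2 and 4 were analysed here. Rows turned into dates by a spreadsheet (27 and 25), 92 spike-ins, 5 HTSeq summary lines and 3 reporter rows were left out; the summary lines held 47.9% of all reads counted in the taste table. No doublet caller was run.

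Pools were compared with edgeR 4.0.16 (R 4.3.3; TMM scaling, its filter on low counts, Benjamini-Hochberg over all tested genes); DESeq2 1.42.0 was an alternative. Ganglion reads were summed per experiment and group of cells, with sums of fewer than 5 cells left out and experiment as covariate, since both sums come from the same experiments (correlations of paired deviations 0.0245 to 0.186, glial split). CPM are reads per 1000000 gene reads. A group without reads was set to 3 reads over its libraries (5.07 CPM for sour and 1.69 CPM for control pools). Shares carry exact (Clopper-Pearson) 95% intervals. Scripts ran in Python 3.11.15 and were tested on simulated data, where the pool fit recovered most of the larger changes, the glial fit few and the Piezo2 fit none. Gene coordinates and exon lengths came from GENCODE, promoters from RefSeq.

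The members and gene lists were chosen with earlier results of these data known. Every member was accounted for; values per library were given for members tested in the pools, shares for members seen in at least 10% of cells, up to 4 genes with the smallest p per other list, the defining markers, and the 5 genes most like a member seen in at least 20% of cells. The extended promoter window was chosen after a first search. Cygb, Prrx2, Fbn1, Fbln2, Pi16, Postn, Clec3b, Krt10 and the further list genes with no read were named outside that rule, after their values were seen. Some genes that the rule names are not reported here.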

Additional observations from a re-analysis of the deposited data

Results flagged for a closer look

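Over 18 sets of values examined (6 tested members in the 4 control pools and 12 members over the 8 ganglion experiments), 3 held a value far from the others. For normally distributed values chance flags about 1 set in 20. That rate need not hold for means that rest on few cells, so the count is a description only. Col3a1 averaged 391.8 CPM per cell in experiment JC12, against at most 46.9 CPM in the others, and 1 cell held 96.7% of it. Col9a2 averaged 152 CPM in JC11, against at most 14.4 CPM in the others, and 1 cell held 96.1% of it. Col6a2 averaged 8.76 CPM in JC10, with a read in 14 of 63 cells, against at most 3.92 CPM in the others; its top cell held 44.6%.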

How the results depend on the processing

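Of the 6 members called in the pools, Col17a1, Col7a1, Dcn and Col28a1 kept their call in 10 of 10 alternatives; 4 to 6 members were called when a pool was left out (4 without sour pool replicate 1), 5 with DESeq2 and 6 with plate as a replicate block. Whether sharing a plate pairs the pools could not be tested, because the deviations of 2 sour pools from their mean mirror each other. With no filter on low counts, 1 member was called in the glial split (Col6a3) and 1 in the Piezo2 split (Col24a1); every other alternative called 0 in each, including the fits with no replicate block. Over all genes, calls in the glial split moved between 0 (without JC07) and 38 higher (no filter, with 3 lower), against 6, and in the Piezo2 split from 0 to 38 higher and 58 lower (no filter), with 8 and 3 under DESeq2 size factors; the pools had 638 higher and 761 lower without sour pool 1. Thinning cells to 50000 reads left 5 members tested in each split. In ganglion cells 5 rather than 12 members reached 10% of cells, both when at least 5 reads were required and after thinning to 50000 reads; the thinned fits use fewer reads by construction. Several uncalled log2 fold changes turned sign. With no replicate block, Col12a1 was at 0.32 in the glial split, and in the Piezo2 split Col12a1 was at 0.33, Col1a2 at 0.16, Col3a1 at 1.67, Col5a2 at 1.12, Col9a2 at 1.03 and Dcn at -0.084. With at least 4000 genes per cell, Col25a1 was at 0.49 in the glial split, and Col19a1 at -0.10, Col28a1 at -0.43, Col6a3 at -1.47 and Dcn at -0.26 in the Piezo2 split. Thinning put Col25a1 at 0.073 in the glial split. When 1 experiment was left out, values ran from -0.52 to 0.59 for Col16a1 and from -0.72 to 0.073 for Col25a1 in the glial split, and in the Piezo2 split from -0.41 to 1.01 for Col16a1, -1.50 to 0.37 for Col3a1, -1.14 to 0.069 for Col5a3, -4.65 to 0.022 for Col6a2 and -0.18 to 1.23 for Dcn; the cause was not tested. In the pools 41 of 47 members had too few reads to be tested, 26 of them with no read in any pool.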
